A study of Arabidopsis thaliana with 9 samples.

Results

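The unpollinated pistil of Arabidopsis thaliana is described here from the 3 arrays, of 9 in the study, whose titles name ms1 pistils without pollination. The pistils came from male sterile 1 (ms1) plants of the Ler-0 ecotype, were taken at flower stage 14 in collections of 100, and were cut free of the other floral organs and frozen on dry ice. The 3 arrays were labelled as biological replicates, and whether each was its own collection of plants is not stated, so the spread between them may be partly technical. The labels give no hour of collection for them. The other 6 arrays, of pistils 8 hours after pollination, were not analysed here.

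The pistil is the female organ of the flower and is made of stigma, style, transmitting tract and an ovary with ovules. Each ovule holds a female gametophyte with an egg cell, a central cell and synergids. MS1 encodes a PHD-finger protein that the tapetum of the anther needs for pollen maturation, so ms1 flowers shed no working pollen and their pistils stay unpollinated until pollen is brought to them by hand. Valve tissue of the ovary is green and photosynthetic.

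RNA was measured with probe sets, groups of short probes that each stand for 1 transcript or a few. A level is the log2 of the deposited intensity, and values are given for arrays 1, 2 and 3 in that order. The brightness of different probe sets depends on their probes as well as on the transcript, so a rank below is one of array brightness and not of transcript abundance. All 3 arrays are of 1 group, so the results are levels and spreads with no test. In RNA from a whole organ, fewer cells of a type and less RNA per cell cannot be told apart.

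Of 22746 ranked probe sets, 13513 had exactly 1 listed gene, 503 had several and 8730 had none. Mean levels ran from 2.85 to 14.71 with a median of 6.70, and 34.8% lay under 5. The brightest 1% of probe sets, 227 in number, held 22.5% of the summed intensity, and the brightest 10% held 62.5%. The median intensity was 103.3, 104.7 and 103.3 in the 3 arrays. Pearson's r across probe sets was 0.9944 for arrays 1 and 2, 0.9922 for arrays 1 and 3 and 0.9931 for arrays 2 and 3.

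Array 3 stood apart from the other arrays in its control probe sets. For 3 plant control transcripts with probe sets near each end, the 3′ minus 5′ level was 4.29, 4.3 and 4.88 for actin, 2.26, 2.1 and 3.06 for GAPDH and 2.08, 2.0 and 2.58 for ubiquitin. A second set for each transcript was also highest in array 3, with differences of 0.37 to 0.76 from the mean of the other arrays. The 24 probe sets of the bacterial poly-A controls, transcripts commonly added to RNA before labelling, were a median of 2.64-fold higher in array 3 than in the mean of arrays 1 and 2. The 18 probe sets of the hybridisation controls were a median of 1.43-fold higher, and the 25S ribosomal RNA probe set was 1.53-fold higher. These values move with each result below in which array 3 stands apart, and their part in it was not tested.

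**Figure D1:**
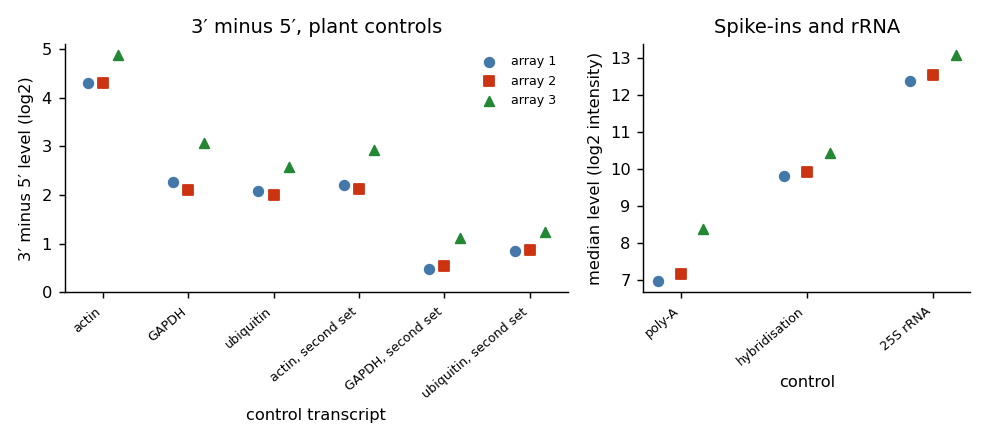
Control probe sets in the 3 unpollinated arrays. The left panel gives the 3′ minus 5′ log2 difference of 6 control sets, and the right panel the median log2 level of the poly-A controls, the hybridisation controls and 25S rRNA. Array 3 (triangles) is highest in every column.

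The brightest named gene of the virgin pistil was THI2.1, which encodes a thionin, a small cysteine-rich antimicrobial peptide of flowers and young fruit. Its level was 14.45, 14.48 and 14.45, a mean of 14.46 ± 0.02 (SD, n = 3). The third place was held by GILT (AT4G12960), a member of the GILT family of thiol reductases, at 14.09, 14.15 and 14.21. Beside them among the 20 brightest named genes were 7 genes of the plastid genome, 8 of cytosolic ribosomal proteins, 2 further genes of secreted proteins and the nuclear photosynthesis gene RCA. These 20 spanned mean levels from 13.16 to 14.46.

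The plastid genes of this group encode photosynthesis and housekeeping proteins. The beta and epsilon subunits of the plastid ATP synthase were at 14.10, 14.10 and 14.00 for atpB and at 14.33, 14.28 and 14.46 for atpE. The photosystem I core gene psaB was at 13.55, 13.54 and 13.70. The small photosystem II subunit gene psbM, the NADH dehydrogenase-like subunit gene ndhI, the ribosomal protein gene rps4 and the protease subunit gene clpP had means from 13.34 to 14.00. The level of clpP was 13.50 in array 3 against 13.26 and 13.25 in the others.

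The 2 further secreted proteins were a lipid transfer-like protein, AT1G48750, and a member of the Ole e 1 family, AT1G78040, a family first known from an olive pollen allergen. AT1G48750 was at 13.60, 13.77 and 13.17, which was the widest spread of the 20, with an SD of 0.31. AT1G78040 was at 13.49, 13.53 and 13.49. RCA, the activase of the carbon-fixing enzyme Rubisco, was at 13.65, 13.57 and 13.41. The ribosomal protein genes of the group ran from AT5G20290 (S8 of the small subunit) at 13.82 ± 0.04 (SD, n = 3) to AT4G27090 (L14 of the large subunit) at 13.16 ± 0.05.

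**Figure D2:**
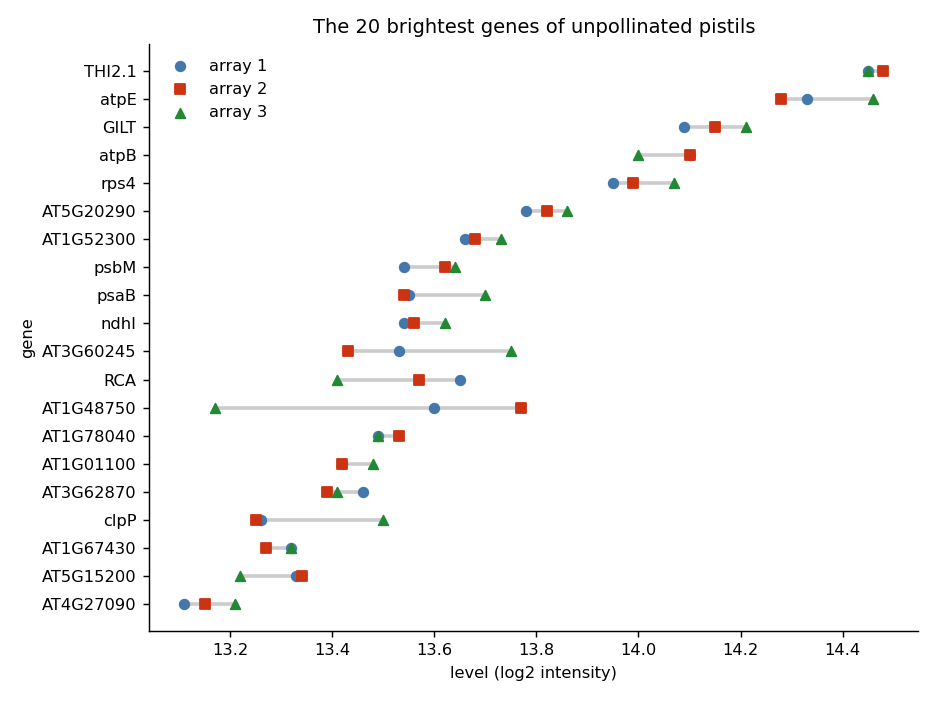
Log2 intensity of the 20 brightest genes with a probe set of their own, 1 point per unpollinated array and a grey bar for the range. THI2.1 leads at 14.45 to 14.48, and AT1G48750 has the widest bar, from 13.17 in array 3 to 13.77 in array 2.

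Neighbours in this order were often closer than their spread. Between each of the 20 genes and the next one down, the gap in mean level was over the larger of the 2 SDs in 9 of 20 pairs. Among all probe sets, the 20 brightest held 6 with 1 listed gene, 2 with several and 12 with none, so the leading named genes are not the whole of the brightest signal.

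Down to the 100 brightest named genes, 51 encoded cytosolic ribosomal proteins, 19 were plastid-encoded, 12 were nuclear genes of photosynthesis or the plastid, 9 encoded secreted, wall or vacuole proteins and 9 were others. The secreted group also held LCR69 (PDF2.2), a plant defensin, and PRXR1, a peroxidase. LCR69 was at 12.95, 12.98 and 12.92. The others included GAPC2, a cytosolic glyceraldehyde-3-phosphate dehydrogenase of glycolysis, at 12.87 ± 0.04 (SD, n = 3), and SAMDC, an S-adenosylmethionine decarboxylase of polyamine synthesis, at 12.73 ± 0.04. Leaving out any 1 array gave a ribosomal count of 51 to 53 and a plastid count of 17 to 18, under the 19 with no array left out. In all, 130 cytosolic ribosomal and 69 plastid-encoded genes were measured. The secreted and nuclear plastid classes were assigned after the values were seen, to the 100 genes alone. Their shares among all named genes were not counted, so no enrichment of them can be read here or among the leading genes above.

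Cytosolic ribosomal protein genes were bright and even. They build both subunits of the ribosome, and 130 of 222 listed genes had a probe set of their own. Their median level was 11.72 against 6.70 for all probe sets, and 105 of the 130 lay among the brightest 10% of all probe sets. Their median SD was 0.07 against 0.118 overall and 0.107 in the brightest of 20 classes by mean level. None of the 130 had a range of at least 1, that is, a 2-fold difference between the highest and lowest array, where 1.74% of all probe sets had one. That share is small, so 0 of 130 lies near it and says little about evenness. The L28 gene AT2G19730 read 13.05 in all 3 arrays.

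Members of this family that share a protein name differed widely in brightness. Of the S8 genes, AT5G20290 stood at 13.78, 13.82 and 13.86 and AT5G59240 at 5.97, 5.63 and 5.62. Of these, AT5G59240 was also among the members with the highest SD, 0.20. The mean levels of the family ran from 3.28 to 13.82. The arrays do not say how much of such a gap lies in the probes.

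Nuclear genes of photosynthesis were bright as a group. All 11 that were measured, of 59 listed, were among the brightest 10%, with a median level of 12.50. PSAE1, a photosystem I subunit, was at 13.27, 13.16 and 12.91. LHCB4.1, an antenna protein of photosystem II, was at 12.91, 12.94 and 12.60. All 11 were lowest in array 3, by a median of -0.26 from the mean of arrays 1 and 2, where the median over all probe sets was 0.

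The median SD of the list was 0.159, above the 0.118 of all probe sets. PSBY and PSAN, small subunits of photosystems II and I, had the highest SDs of the list. PSBY was at 12.75, 12.63 and 12.19, and PSAN was at 12.81, 12.66 and 12.29. Without array 3 the median SD of the list was 0.0636.

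Most plastid-encoded genes went the other way in array 3. Of 69 measured, 47 lay among the brightest 10%, and 45 were highest in array 3. In contrast, 15 were lowest in array 3, among them psbE at 10.83, 10.88 and 10.12. Array 3 was above the mean of arrays 1 and 2 for 52 of the 69, against 48.6% of all probe sets. Their median level was 10.83, 11 and 11.12. The 6 with a range of at least 1 were psaC, psbT, rpl20, atpH, rps14 and psbA, all highest in array 3. Of all probe sets, 1.74% had such a range.

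The gene psaC, for the iron-sulphur subunit of photosystem I, was the widest of these at 6.63, 7.07 and 8.67. The gene atpH, for the membrane ring subunit of the ATP synthase, was at 10.66, 10.77 and 11.71. The gene psbA, for the D1 protein of photosystem II, was at 10.61, 11.16 and 11.64. Without array 3, 0 of the 69 had a range of at least 1, and without array 1 there were 2. As background, plastid transcripts largely lack the long poly-A tails that oligo-dT labelling uses.

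Mitochondria-encoded genes were dimmer. The 16 measured had a median level of 6.60, and 3 of them, ccb382, cox1 and nad4, lay among the brightest 10%. The gene cox1, for a core subunit of cytochrome c oxidase, was at 10.33, 10.36 and 10.96. The gene nad4, for a subunit of complex I, was at 9.76, 9.89 and 10.91. Of the 16, 13 were highest in array 3. Array 3 was above the mean of arrays 1 and 2 for 14 of the 16, against 48.6% of all probe sets. Over all 16 the median difference of array 3 from that mean was 0.39, against 0 over all probe sets.

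**Figure D3:**
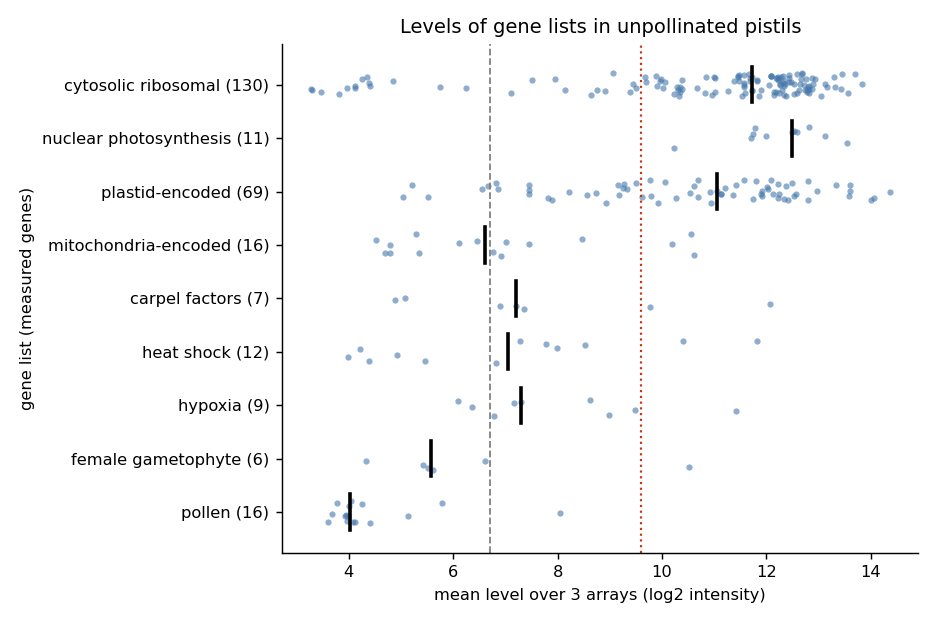
Mean log2 intensity over the 3 arrays for the measured genes of 9 lists, 1 point per gene, with the list median as a black bar. The dashed line marks the median of all probe sets at 6.70, and the dotted line the floor of the brightest 10% at 9.60, which 105 of 130 ribosomal genes exceeded.

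Among regulators of the carpel, 7 of 30 listed genes could be read. CES, a bHLH factor of the transmitting tract, was the brightest at 12.35, 12.46 and 11.40. Arrays 1 and 2 were close for it and array 3 was low, which gave a range of 1.06. ALC, the bHLH factor ALCATRAZ that acts in fruit opening, was at 9.83, 9.79 and 9.66. SPT (SPATULA), a bHLH factor of carpel margins, was at 6.97, 7.0 and 6.73.

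The NGATHA genes, B3 factors of style development, were spread over the lower levels. NGA2 was at 7.45, 7.53 and 7.11 and NGA1 at 7.41, 7.29 and 6.92. NGA3 and NGA4 had means of 5.08 and 4.88. The 2 members above the floor of the brightest 10% were CES and ALC, and 6 of the 7 were lowest in array 3. Array 3 was above the mean of arrays 1 and 2 for 1 of the 7, against 48.6% of all probe sets. AG, SHP1, SHP2, STK and CRC, which define carpel and ovule identity, had no probe set with them as the only listed gene, so the identity of the organ was checked on the 7 alone.

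Genes of the ovule were measured for 4 of 11 listed. HLL, for a mitochondrial ribosomal protein that ovule outgrowth needs, was at 9.87, 9.74 and 9.82. INO, a YABBY factor that marks the outer integument, was at 7.77, 7.70 and 7.43. BAN, anthocyanidin reductase of the seed coat, was at 7.99, 7.96 and 7.54. SPL, which acts at the start of the spore mother cells, was dim at a mean of 3.97. INO was thus above the median of all probe sets in each array.

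In the female gametophyte list, 6 of 18 genes were measured. DD36, known from transcripts lost in ovules without an embryo sac, was the brightest at 10.84, 10.62 and 10.10. DD46 followed at 6.89, 6.73 and 6.22. The egg cell genes EC1.5 and EC1.2, for small secreted proteins that act on sperm at fertilization, were at 5.97, 6.02 and 4.84 and at 5.51, 5.76 and 4.98. Array 3 was lowest for DD36, DD46, EC1.5 and EC1.2. The list's median difference of array 3 from the mean of arrays 1 and 2 was -0.61, against 0 over all probe sets. The other measured members, AGL80 and AGL61, were not lowest in array 3. AGL80 was at 5.51, 5.47 and 5.58 and AGL61 at 4.37, 4.28 and 4.35. Without array 3 the median SD of this list was 0.0894, against 0.365 with it.

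For pollen tube reception, 2 of 7 genes were measured. FER (FERONIA), the receptor kinase of the synergids that is also active through much of the plant, was at 10.33, 10.52 and 10.35. ANJ, a related receptor kinase, was at 7.03, 7.06 and 6.92. Their arrays stayed within 0.19 of each other.

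Markers of the stigma and of tissues outside the pistil were read as well. SLR1, a glycoprotein of stigma papillae known from Brassica, was at 8.34, 8.95 and 8.23. SWEET9, the sucrose exporter of nectaries, organs at the base of the flower outside the pistil, was at 7.58, 6.85 and 6.13. Of 20 listed petal, stamen and tapetum genes, the tapetum genes AMS and A9 were the 2 measured and were dim, at means of 3.47 and 3.63.

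Of 34 listed pollen genes, 16 were measured, and they had a median level of 4.03. None lay among the brightest 10%, and only TUA1 of the 16 lay above the median of all probe sets. TUA1, an alpha-tubulin of pollen, was at 8.13, 8.25 and 7.75. LAT52, a secreted Ole e 1 family protein of pollen, was at 5.60, 5.69 and 6.06. BUPS1, a receptor kinase of pollen tubes, was at 4.69, 4.98 and 5.70. It was the single one of the 16 with a range of at least 1, which 1.74% of all probe sets had. ANX1 and ANX2, which act with BUPS1 in tube integrity, had means of 3.99 and 3.78. No detection calls were used, so a dim probe set is not one whose transcript was absent.

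Over all probe sets the replicates were close. The median SD was 0.118 and the median range 0.22, and 42.4% had a range under 0.2. The SD was highest in the middle of the scale, at 0.153 to 0.156 for mean levels from 5.03 to 6.70, and lower at the ends, at 0.0741 in the dimmest and 0.107 in the brightest of 20 level classes. A range of at least 1 was found for 395 probe sets, and of at least 2 for 49.

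The 395 were not shared evenly among the arrays. Array 2 was highest in 248 of them, array 1 in 92 and array 3 in 53. Array 1 was lowest in 198, array 3 in 181 and array 2 in 16. The commonest order was array 1 below array 3 below array 2, in 158, which is 40% of the 395. Without array 1, 2 or 3 the other pair differed by at least 1 for 191, 232 and 177 probe sets.

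The most variable genes were taken as the 20 named genes with the highest SD among those brighter than the median. Of these, 8 encode chaperones or their partners, which fold proteins under heat and other stress. That class was written after the values were seen, and its share among all named genes was not counted. Array 2 was highest for 18 of the 20 and array 1 lowest for 19. ROF2 (AT5G48570), an FKBP immunophilin that modulates the heat response, was the widest at 5.34, 9.59 and 8.38, an SD of 2.19. The arrays differed by 4.25 on the log2 scale for that gene.

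The other chaperone genes had the same order of arrays. The DnaJ family gene AT2G20560 was at 6.63, 10.05 and 8.88. The mitochondrial small heat shock protein gene HSP23.5 (AT5G51440) was at 5.10, 8.43 and 6.95. The small heat shock protein gene AT1G54050 was the brightest of the 20, at 8.89, 12 and 11.06. Each thus had its lowest level in array 1, its highest in array 2 and array 3 between them.

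Partners of HSP70 and HSP90 lay in the same group. Hop3, a co-chaperone that joins the HSP70 and HSP90 machines, was at 5.63, 8.77 and 7.46. Fes1A, which binds cytosolic HSP70 and acts in tolerance to heat, was at 8.19, 10.61 and 9.49. The HIKESHI-like gene AT1G66080, related to the nuclear carrier of HSP70, was at 7.48, 9.65 and 8.41, and the DnaJ family gene AT3G14200 was at 8.00, 9.86 and 9.51.

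A smaller group of 3 among the 20 belongs to jasmonate, calcium or wound signalling. This class too was written after the values were seen, and its share among all named genes was not counted. OPCL1, a ligase of jasmonate synthesis in peroxisomes, was at 7.10, 9.74 and 9.19. CML38, a calmodulin-like protein induced by wounding and low oxygen, was at 6.03, 8.61 and 7.28. STZ (ZAT10), a zinc finger repressor of stress responses, was at 5.68, 7.71 and 6.78. The neighbouring loci AT4G27652, AT4G27654 and AT4G27657 were also among the 20, and each was lowest in array 1 and highest in array 2.

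The 2 exceptions to the pattern of array 2 were AT4G18425 and psaC. AT4G18425, for a DMP family membrane protein, was at 7.97, 7.78 and 4.94, so that array 3 alone was low. Of the remaining genes, AT5G25450, for a subunit of mitochondrial complex III, was at 6.89, 9.01 and 7.54. AT2G27080, AT4G29780 and AT5G10695 had ranges of 1.79, 1.77 and 1.92, each with array 1 lowest. When array 1, 2 or 3 was left out and the genes were ranked by the gap of the other pair, 5, 9 and 17 of the 20 were still among the leading 20.

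**Figure D4:**
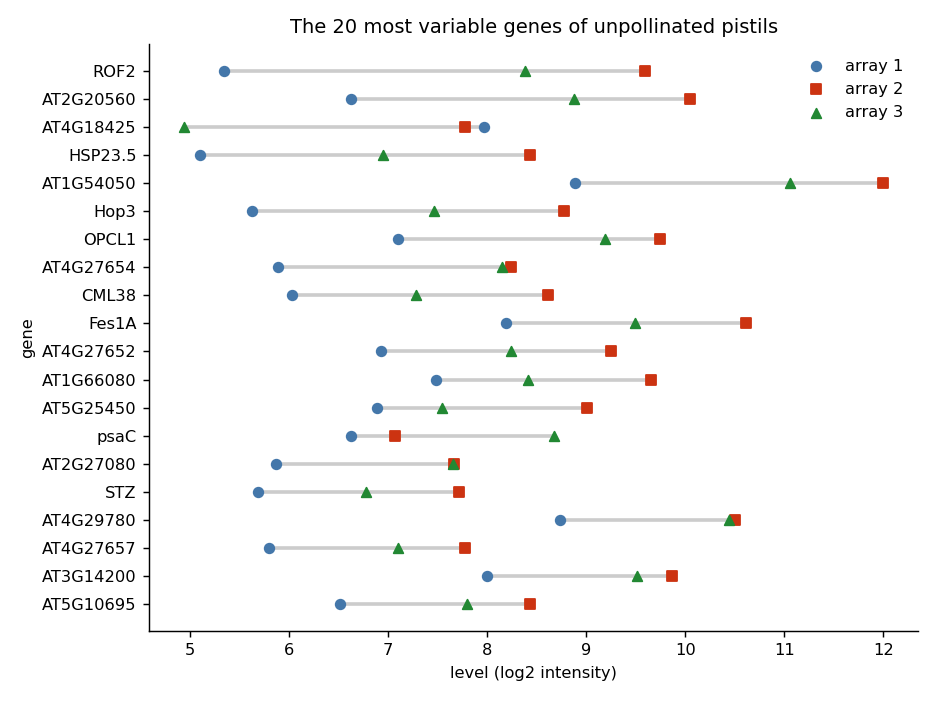
Log2 intensity of the 20 most variable genes brighter than the median of all probe sets, 1 point per unpollinated array and a grey bar for the range. Array 2 (squares) is highest for 18 genes and array 1 (circles) lowest for 19, and ROF2 spans 5.34 to 9.59.

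The heat shock list had the highest median SD of the lists with over 2 measured genes. Of 41 listed genes 12 were measured, with a median level of 7.06 and a median SD of 0.51. A range of at least 1 was reached by 7 of the 12, against 1.74% of all probe sets, and 4 of these 7 are among the 20 just described. The list was chosen with earlier results of these data known, so this comparison is a description and no independent support. Array 1 was lowest for 10 and array 2 highest for 9. Array 2 was above array 1 for 11 of the 12, against 43.3% of all probe sets. The median of array 2 minus array 1 was 1.01, where the median over all probe sets was -0.01. Without array 3 the number with a range of at least 1 was 7 as well, and without array 2 it was 4.

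Members of the list were not alike. HSC70-3 and HSC70-2, HSP70 proteins of the cytosol, were the brightest, at 11.29, 12.29 and 11.87 and at 9.80, 10.69 and 10.69. HSA32, which acts in the memory of heat, was at 7.47, 8.48 and 7.99. The small heat shock protein gene HSP17.6B was at 4.49, 5.66 and 4.61. In contrast HSP22 was at 4.28, 4.22 and 4.16, and HSP26.5 was lowest in array 3 at 3.67. These last genes lay well under the median level of 6.70.

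The hypoxia list showed a smaller difference of array 2. Its genes respond to low oxygen across organs, and 9 of 27 were measured. Array 2 was highest for 7 of the 9. It was above array 1 for the same 7, where 43.3% of all probe sets were. The median of array 2 minus array 1 was 0.61, against -0.01 over all probe sets. The other members were highest in array 1, AT4G27450 at 9.73, 9.54 and 9.20 and AT1G33055 at 8.75, 8.58 and 8.50. CML38, described above, was the single member with a range of at least 1, which 1.74% of all probe sets had. HRA1, a repressor of the hypoxia response, was at 6.79, 7.77 and 6.91, and PDC2, a pyruvate decarboxylase of fermentation, was at 6.38, 7.13 and 6.85. The brightest member, AT3G10020, was at 11.43, 11.70 and 11.12. Without array 2 the median SD of the list was 0.177, against 0.379 with it.

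Of the jasmonate, wound and touch list, 2 of 39 genes were measured, STZ and WRKY53. WRKY53, a transcription factor of leaf senescence and defence, was at 5.39, 6.24 and 6.07. Both had array 1 lowest and array 2 highest.

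**Figure D5:**
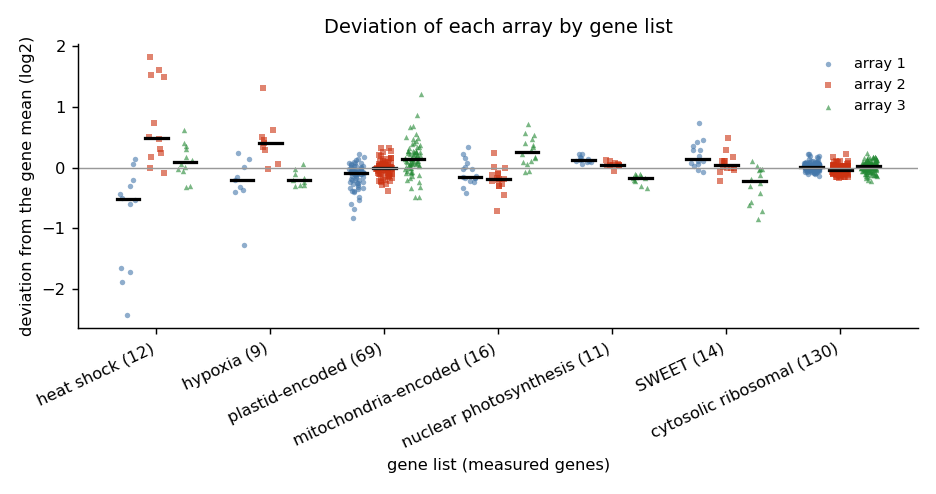
Deviation of each array from the gene's mean (log2) for 7 lists, 1 point per gene and array, with the median as a black bar. Array 1 is lowest for 10 of 12 heat shock genes and array 2 highest for 9, array 3 is highest for 45 of 69 plastid-encoded and 13 of 16 mitochondria-encoded genes, and the medians of ribosomal genes lie close to 0.

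Array 3 alone was lower by at least 0.5 than both others for 523 probe sets and higher for 261. For array 1 these counts were 243 and 82, and for array 2 they were 47 and 213. The named genes with the widest gap in array 3 after AT4G18425 included AT2G05540, a glycine-rich protein gene, at 9.67, 9.39 and 7.99. AT5G51890, a class III peroxidase gene, was at 8.56, 8.80 and 7.18. AT1G12010, for an ACC oxidase of ethylene synthesis, was at 9.44, 9.04 and 7.72. For all of these array 3 was the lowest by over 1.

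Genes higher in array 1 than in both others had smaller gaps. PAP85, a vicilin-like seed storage protein gene, was at 8.10, 7.25 and 6.44. SWEET9, named above, had the same order. AT5G65300 was the widest for array 2 alone, at 6.92, 8.58 and 6.98. Among named genes above the median, the widest gap to the nearer of the other arrays was 0.87 for array 1 higher and 3.04 for array 1 lower (ROF2). It was 1.60 for array 2 higher and 2.84 for array 3 lower.

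Sugar transporters of the SWEET family were measured for 14 genes with a median level of 7.04. SWEET4 and SWEET1, plasma membrane sugar carriers, were the brightest. SWEET4 was at 10.31, 10.28 and 10.25. SWEET1 was at 10.56, 10.56 and 9.71. SWEET3, SWEET9 and SWEET8 had a range of at least 1, and SWEET3 was at 8.57, 8.70 and 7.36. Of all probe sets 1.74% had such a range. Of the 14, 10 were lowest in array 3. Array 3 was above the mean of arrays 1 and 2 for 2 of the 14, against 48.6% of all probe sets. Without array 3, 0 of the 14 had a range of at least 1. Without array 1 there was 1.

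Defence peptides were either bright or dim. Of 16 listed pathogenesis-related proteins, defensins and thionins, 9 were measured. THI2.1, PDF2.2 and PDF2.3 lay among the brightest 10%, and PDF2.3 was at 10.36, 10.23 and 10.42. The other 6 lay under the median of all probe sets, among them THI2.2 at 4.71 ± 0.04 (SD, n = 3) and PDF1.2a at 5.42 ± 0.07. The median SD of the list was 0.0578, and none of the 9 had a range of at least 1, which 1.74% of all probe sets had.

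Genes of scent, pigment and surface were few on the measured lists. TPS11, a terpene synthase known for the sesquiterpenes of Arabidopsis flowers and their stigma, was at 11.85, 11.80 and 11.91. TPS24 was at a mean of 4.24. UGT78D1, a flavonol rhamnosyltransferase, was at 10.26, 10.05 and 10.25, and DFR, the dihydroflavonol reductase of anthocyanin synthesis, was at 7.89, 7.89 and 7.79. WSD1, a wax ester synthase, was at 11.54, 11.40 and 11.27. None of these had a range of at least 1, which 1.74% of all probe sets had.

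The usual reference genes were steady. GAPC2, UBC21, the TIP41-like gene and the SAND gene, 4 of 22 listed, had a median SD of 0.0577. UBC21, a ubiquitin-conjugating enzyme also called PEX4, was at 10.10, 10.10 and 9.97. The TIP41-like gene was at 8.63, 8.68 and 8.63. The list's highest SD was 0.0776, under the median of 0.118 for all probe sets.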

How the data were processed

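RNA of 3 unpollinated ms1 pistil samples was amplified from 100 ng of total RNA with a 3′ IVT express kit and hybridised to arrays, per the labels. The values the authors deposited were linear intensity per probe set, and the submitters' processing notes name Partek, RMA and the Affymetrix Expression Console, with no version. RMA sets the arrays to a shared distribution, so levels are relative to it. The exponents of the deposited values step by a hundredth, so ranges were rounded to it. The log2 of each deposited intensity was taken with pandas 2.3.3 and numpy 2.4.6 in Python 3.11.15, and 64 control probe sets were left out of the ranking.

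Genes were named from the platform annotation where a probe set had 1 listed gene, and 13436 of these 13513 matched the TAIR10.1 gene table. Where a gene had several probe sets, the one with the highest mean stood for it in a list. Named genes were the 20 brightest, the 20 with the highest SD among those above the median level, and per list the 4 brightest and 2 most variable members, as far as their roles are known. Others were chosen after their values were seen: the genes with the widest array gaps, the steadiest gene, the organelle genes, and members contrasted with these. The members and lists were chosen with earlier results of these data known, and the classes, the ribosomal, stigma and nectary lists and the gene families were written after the values were seen. A ranking by SD was run on simulated arrays in which some probe sets had a shift far larger than the noise. Recovery of such shifts could hardly fail, so it says nothing about smaller ranges or about the ranking by brightness. Alternatives were array medians set equal, renewed quantile normalization, other measures of level and spread, and each array left out. Precision is limited by the number of arrays. Sequence features were not analysed here.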

Additional observations from a re-analysis of the deposited data

How the results depend on the processing

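No paired analysis was possible because the results come from no test. With array medians set equal or after renewed quantile normalization, the counts and medians over all probe sets stayed within 1.5 times their value. The array medians were already 6.69, 6.71 and 6.69, so these settings could hardly change a result. Medians of the heat shock, ribosomal, plastid-encoded and nuclear photosynthesis lists stayed within 1.5 times their value or within 1 SD. That SD is the one between the array medians of a list. It was 1.62 for the heat shock list, so wide that the median level of that list could hardly fall outside it. Counts of list members were not recomputed under these settings. Ranges over 2 arrays are narrower by construction. Leaving out each array gave 177 to 232 probe sets with a range of at least 1, and taking the probe sets above the median level alone gave 247, against 395. The median SD was 0.0736 to 0.106 against 0.118. Of the 20 brightest genes 19 to 20 remained, and of the 20 most variable 5 to 17. With 1 array left out, the median SD was 0.0636 to 0.212 for nuclear photosynthesis genes, 0.0424 to 0.0636 for ribosomal genes and 0.0847 to 0.219 for plastid-encoded genes. The number with a range of at least 1 was 4 to 7 for the heat shock list and 0 to 6 for plastid-encoded genes. No value over signal background was used, so how far dim levels lie above it is unknown. Lists cover the measured members alone.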

Other observations

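Some members of gene families not described above are given next for unpollinated pistils. By construction, 10% of all probe sets lie among the brightest 10%. There lay 2 of 11 RALF-like, 2 of 7 subtilase, 1 of 14 expansin, 1 of 15 tetraspanin and 3 of 7 tubulin genes. Counts this small say little about a family. Of 11 measured RALF-like peptide genes, small secreted signals of growth, RALFL34 was the brightest at log2 levels of 11.72, 11.63 and 11.60, and RALFL31 read 8.60 in all 3 arrays. Of 7 measured subtilases, secreted proteases, SBT1.3 was at 12.11, 12.07 and 12.27, and SBT4.13 was at 11.31, 11.56 and 10.26, lowest in array 3. Of 14 measured expansins, which loosen cell walls and had a median of 4.93, EXPA15 was the single one among the brightest 10%, at 9.70, 10.06 and 9.87. TET8, a tetraspanin of the plasma membrane and of secreted vesicles, was at 10.95, 11.75 and 11.46. All 7 measured tubulin genes lay above the median of all probe sets, with TUA6 at 11.25, 11.37 and 11.29.

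Further families were measured as well. The 47 UDP-glycosyltransferase genes had a median of 4.63, with 1 of the 47 among the brightest 10% of all probe sets. Of 9 xyloglucan endotransglucosylase/hydrolase genes, which remodel walls, XTH16 was at 9.81, 9.26 and 9.16, and 3 of the 9 lay above the median. The glucosidase gene BGLU28 was the single one of 20 beta-glucosidase genes with a range of at least 1, at 6.58, 7.25 and 7.90. The single one of 29 serine carboxypeptidase-like genes was scpl48, at 8.98, 8.70 and 7.70. Of all probe sets 1.74% had such a range, so 1 gene says little about either family.

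Beyond the 20 most variable genes, some genes with roles like those of the leading ones were picked after their values were seen. ORA47, a factor that activates jasmonate synthesis genes, was at 7.52, 9.24 and 8.64. AT5G05600, for an oxygenase that hydroxylates jasmonate, was at 7.16, 8.88 and 8.36. The HSP20-like gene AT2G19310 was at 7.73, 9.30 and 8.33. In each, array 1 was lowest and array 2 highest. Among the 100 most variable named genes above the median, array 2 was highest for 67 and lowest for 0, array 1 was lowest for 51 and array 3 for 49.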
